A study of Rattus norvegicus with 5 samples.

Results

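Hmox1, Nqo1, Gclc and Gclm are 4 genes of the cell's defence against oxidative stress. They were chosen by name and are 4 of the 15074 genes listed in all 5 tables of the series. The tables list genes by Ensembl ID, and the 4 names were given with the selection: ENSRNOG00000014117 for Hmox1, ENSRNOG00000012772 for Nqo1, ENSRNOG00000006302 for Gclc and ENSRNOG00000013409 for Gclm. The levels were described in single ventricular cells of wild type Sprague Dawley rats at age P2, cultured as a mixture of myocytes and non-myocytes and infected with an adenovirus. The virus carried GFP or TBX18, a T-box transcription factor of the embryonic sinoatrial node, and by its title the series concerns the turning of ventricular myocytes into pacemaker cells. The 5 groups were GFP at day 3, TBX18 at day 3, GFP at day 14, TBX18 at day 14, and TBX18 with A83-01 at day 14. A83-01 blocks TGF-beta type I receptor kinases and was given at 0.2 µM. The title of that sample says day 14 and its treatment label says 3 days, so the length of exposure is not settled. No uninfected culture is among the samples, so all 5 groups carry a virus. With 1 library for each group there is no replicate check, and neither a test nor a p-value is given. Intervals are 95% intervals for counting error alone and leave out differences between cultures.

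The products of these genes do different jobs under 1 shared regulator. The transcription factor NRF2 is held down by KEAP1 in resting cells, is released by oxidants and electrophiles, and then binds antioxidant response elements with a small MAF partner, while BACH1 competes for such sites, above all at Hmox1. Hmox1 encodes haem oxygenase 1, which breaks haem into biliverdin, carbon monoxide and iron. Nqo1 encodes a quinone reductase that keeps quinones from cycling with oxygen. Gclc and Gclm encode the catalytic and the modifier subunit of glutamate-cysteine ligase, the rate-limiting enzyme of glutathione synthesis. In the heart, glutathione and haem oxygenase 1 are best known for limiting injury after ischaemia.

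The sequence before the start of the gene was read for the members that have an entry in the RefSeq promoter table of build GRCr8, Nqo1, Gclc and Gclm, 3 of 4. These 250 bases upstream are shown because the members share a regulator and their levels differed in unlike ways. Capitals mark a match to the antioxidant response element core, searched as TGACNNNGC on both strands.
Nqo1 (chr19:52220268-52220517, - strand): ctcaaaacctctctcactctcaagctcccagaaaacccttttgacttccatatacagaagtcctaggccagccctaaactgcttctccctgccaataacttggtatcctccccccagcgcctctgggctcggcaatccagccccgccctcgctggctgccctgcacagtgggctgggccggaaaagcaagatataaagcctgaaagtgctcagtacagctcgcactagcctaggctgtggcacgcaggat
Gclc (chr8:87510226-87510475, + strand): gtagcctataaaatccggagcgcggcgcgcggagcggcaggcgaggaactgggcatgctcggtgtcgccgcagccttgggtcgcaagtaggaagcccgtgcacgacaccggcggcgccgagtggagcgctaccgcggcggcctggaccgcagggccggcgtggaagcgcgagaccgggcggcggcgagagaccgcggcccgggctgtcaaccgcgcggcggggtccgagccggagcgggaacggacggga
Gclm (chr2:213031885-213032134, + strand): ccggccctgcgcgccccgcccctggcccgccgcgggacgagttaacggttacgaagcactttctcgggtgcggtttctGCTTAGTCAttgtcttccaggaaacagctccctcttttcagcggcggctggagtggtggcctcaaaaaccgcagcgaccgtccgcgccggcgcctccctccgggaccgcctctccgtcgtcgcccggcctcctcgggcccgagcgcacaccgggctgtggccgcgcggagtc
The core was found once, in Gclm on the reverse strand, where it reads GCTTAGTCA on the gene's strand, 172 bases before the start. Of 33469 RefSeq promoters cut to the same length, 10.1% hold the core. Neither the AP-1 site TGANTCA, held by 6.34% of these promoters, nor the T-box motif GGTGTGA, held by 3.22%, was found in the 3 windows. The letters of TGACNNNGC and TGANTCA both begin with TGA, so that matches to them can overlap. A match is a description of letters, and these windows do not reach more distant elements.

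Cells were put in 2 compartments, numbered 1 and 2, by clustering without the 4 genes and without the virus features. Myocytes and stromal cells are the cells of interest, but the tables pair no IDs with names, so the defining markers of either could not be read and the compartments are not named here. EGFP decided the numbering: in GFP at day 3, it was found in a higher percentage of cells in compartment 1 than in compartment 2. That order was fixed by the numbering and is not a result. Compartment 1 took 58.9% of 7665 cells in GFP and 51.3% of 6101 in TBX18 at day 3. At day 14 it took 33.1% of 6046 in GFP, 15.9% of 7901 in TBX18 and 34.2% of 7171 in TBX18 with A83-01. Levels are CPM, the UMIs of a gene (captured RNA molecules) per 1000000 UMIs of the compartment in that library. Libraries held from 104781487 to 202024242 UMIs, with a median of 15610 to 28566 per barcode, and 144 of 37875 distinct barcodes occurred in more than 1 library. The transgenes followed the labels: EGFP was at 96.4 CPM in compartment 1 of GFP at day 3 and at 1 UMI or less in each TBX18 library, and ZsGFP and hTBX18 were at 0 UMIs in both GFP libraries. In TBX18 libraries, hTBX18 in compartment 1 was at 23.9 CPM at day 3, 9.15 CPM at day 14 and 7.37 CPM with A83-01.

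Hmox1 was higher in compartment 2 than in compartment 1 in all 5 libraries, and in both compartments its lowest library was GFP at day 3. In compartment 1 it was at 5.67 CPM (5.22 to 6.15) in GFP and 11.7 CPM (11.0 to 12.4) in TBX18 at day 3. At day 14 it was at 72.1 CPM (69.2 to 75.2) in GFP, 23.3 CPM (21.3 to 25.5) in TBX18 and 33.9 CPM (32.3 to 35.6) in TBX18 with A83-01. In this compartment TBX18 was the higher library at day 3 and the lower at day 14. In compartment 2 Hmox1 was at 49.0 CPM (47.4 to 50.6) in GFP and 71.0 CPM (69.2 to 72.8) in TBX18 at day 3. It was at 153 CPM (150 to 156) in GFP, 109.8 CPM (107.8 to 111.8) in TBX18 and 197 CPM (194 to 200) in TBX18 with A83-01 at day 14. The order in compartment 2, from low to high, was GFP and TBX18 at day 3, then TBX18, GFP and TBX18 with A83-01 at day 14, and no neighbours in it had intervals that overlap.

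Nqo1 was also higher in compartment 2 in all 5 libraries. In compartment 1 it was at 4.81 CPM (4.39 to 5.25) in GFP and 7.75 CPM (7.19 to 8.35) in TBX18 at day 3, and at 22.2 CPM (20.6 to 23.9) in GFP, 9.83 CPM (8.52 to 11.3) in TBX18 and 14.4 CPM (13.4 to 15.5) in TBX18 with A83-01 at day 14. GFP at day 14 was the highest library. In compartment 2 it was at 54.9 CPM (53.3 to 56.6) in GFP and 24.6 CPM (23.6 to 25.7) in TBX18 at day 3. There it was at 146 CPM (143 to 149) in GFP, 44.5 CPM (43.2 to 45.8) in TBX18 and 54.2 CPM (52.6 to 55.8) in TBX18 with A83-01 at day 14. In compartment 2 all 3 libraries with TBX18 were at or below the level of GFP at day 3, and the interval of TBX18 with A83-01 overlaps that of GFP at day 3.

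The catalytic subunit gene Gclc was low at day 3 in both compartments. In compartment 1 it was at 7.72 CPM (7.19 to 8.28) with GFP and 7.75 CPM (7.19 to 8.35) with TBX18, and at 8.64 CPM (7.999 to 9.32) and 6.51 CPM (5.99 to 7.08) in compartment 2. At day 14 compartment 1 had 24.5 CPM (22.8 to 26.3) with GFP, 16.2 CPM (14.5 to 18.0) with TBX18 and 15.1 CPM (14.1 to 16.3) when A83-01 was added. Compartment 2 had 26.7 CPM (25.4 to 28.0) with GFP, 16.8 CPM (16.0 to 17.6) with TBX18 and 48.2 CPM (46.7 to 49.7) when A83-01 was added. The 2 compartments lay close together in every library except TBX18 with A83-01, where compartment 2 stood alone at the top.

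The modifier subunit gene Gclm spanned the narrowest range of the 4. In compartment 1 it was at 38.1 CPM (36.9 to 39.3) in GFP and 21.0 CPM (20.1 to 22.0) in TBX18 at day 3, and at day 14 at 30.9 CPM (29.0 to 32.9) with GFP, 29.6 CPM (27.3 to 32.0) with TBX18 and 16.6 CPM (15.4 to 17.8) when A83-01 was added. In compartment 2 it was at 35.1 CPM (33.8 to 36.4) with GFP and 27.7 CPM (26.6 to 28.8) with TBX18 at day 3. The day 14 values there were 25.3 CPM (24.1 to 26.6) with GFP, 23.3 CPM (22.4 to 24.3) with TBX18 and 29.0 CPM (27.8 to 30.2) when A83-01 was added. Its highest library in both compartments was GFP at day 3, whereas Hmox1, Nqo1 and Gclc had theirs at day 14.

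**Figure D1:**
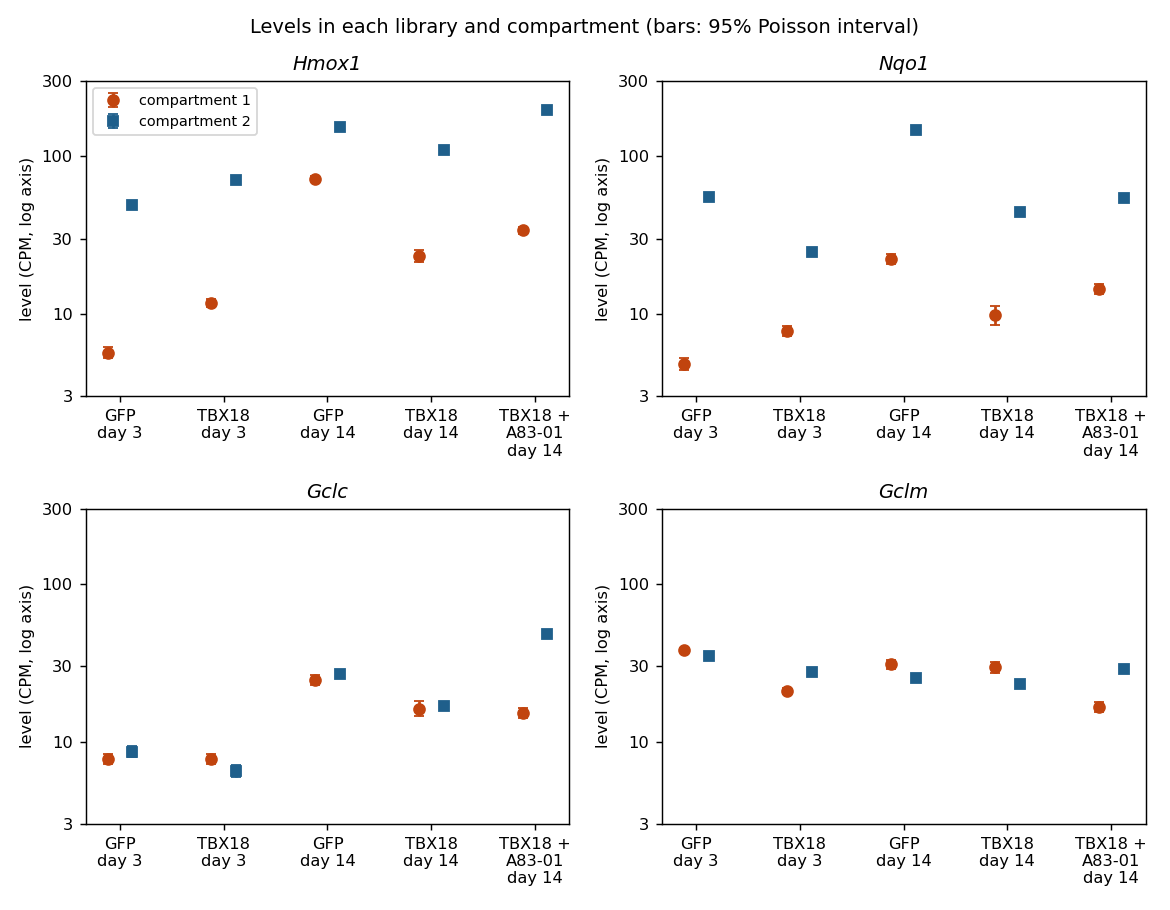
Level of each gene in CPM (log axis) in the 5 libraries, for compartment 1 (circles) and compartment 2 (squares), with 95% Poisson intervals as bars. Hmox1 and Nqo1 lie higher in compartment 2 in every library, while Gclc of the 2 compartments lies close together except in TBX18 with A83-01. Gclm lies higher in compartment 2 in TBX18 at day 3 and in TBX18 with A83-01, where the gap is widest, and lower in the other libraries.

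Within each library, the log2 ratio of compartment 2 over compartment 1 for Hmox1 was 3.11, 2.60, 1.09, 2.24 and 2.54 in GFP day 3, TBX18 day 3, GFP day 14, TBX18 day 14 and TBX18 with A83-01. For Nqo1 it was 3.51, 1.67, 2.72, 2.18 and 1.91. Both passed 2-fold in all 5 libraries, where 27.6%, 26.1%, 25.6%, 20.6% and 34.2% of the 4967 genes tested (mean of at least 20 CPM) did so in that direction, and 0 of the 4 were 2-fold lower, where 19.1%, 18.1%, 16.5%, 16.3% and 15.2% of genes were. Gclc stayed between -0.25 and 0.16 in the first 4 libraries and was at 1.67 (1.55 to 1.78) with A83-01, and its sign in GFP at either day and in TBX18 at day 14 flips under median-of-ratios scaling. Gclm was between -0.34 and 0.40 in the first 4 and at 0.80 (0.69 to 0.92) with A83-01. The median of all genes tested was 0.53 in the A83-01 library and 0.17 to 0.25 in the others. Gclc, with a mean of 17.8 CPM over the 10 sums of a library and compartment, is itself below the minimum for the genes tested, and the other 3 members are above it.

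At day 3, TBX18 against GFP went in unlike directions for the 4 genes. Hmox1 was 2.07-fold higher in compartment 1, a log2 ratio of 1.05 (0.90 to 1.20), and 1.45-fold higher in compartment 2, at 0.53 (0.48 to 0.59). The share of RNA from outside the cell (free RNA) in the compartment 1 levels, 5.67 and 11.7 CPM, was not measured. Nqo1 was higher in compartment 1, at 0.69 (0.52 to 0.86), and 2.23-fold lower in compartment 2, at -1.16 (-1.24 to -1.08). Gclm was lower in both, at -0.86 (-0.94 to -0.78) and -0.34 (-0.42 to -0.26), and Gclc was at 0.01 (-0.14 to 0.15) and -0.41 (-0.57 to -0.24). Of the 4 genes, 1 was at least 2-fold higher in compartment 1, where 5.17% of genes were, and 0 were 2-fold lower, where 3.52% were. That 1 is Hmox1, whose ratio has nothing added, whereas the shares of all genes come from levels with 0.5 CPM added. With 0.5 CPM added to both of its levels, Hmox1 would fall just short of 2-fold. In compartment 2, 0 were 2-fold higher and 1 was 2-fold lower, against 1.17% and 1.11% of genes. In compartment 2, 0.523% of the genes tested had a lower ratio than Nqo1. The median of the 4 genes was 0.35 in compartment 1 and -0.37 in compartment 2, against -0.07 and -0.08 over all genes.

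Cells of compartment 2 at day 3 lay mostly in different clusters in the 2 libraries. Cluster 8 took 52.2% of them in GFP and 4.54% in TBX18, and cluster 5 took 9.50% and 72.2%. Of 8 clusters with at least 20 cells in both libraries, Hmox1 was higher with TBX18 in 8 and Nqo1 was lower in 7. In cluster 8 Nqo1 was at 36.6 CPM (34.7 to 38.5) in GFP and 32.0 CPM (26.4 to 38.5) in TBX18, with intervals that overlap. In cluster 17, for example, Hmox1 was at 19.1 CPM in GFP and 46.7 CPM in TBX18, and Nqo1 at 95.8 and 58.7 CPM. Cluster 5 had the widest gap for Nqo1, at 116 CPM in GFP and 21.2 CPM in TBX18. Gclc was higher with TBX18 in 5 of the 8, each with intervals that overlap, and Gclm was lower in 5. Intervals were apart only in cluster 12 for Gclc, at 16.2 CPM in GFP and 10.6 CPM in TBX18, and in cluster 5 for Gclm, at 31.7 and 23.5 CPM. Cluster 28 held 0 and 4 UMIs of Hmox1, and 7 and 4 of Nqo1, in GFP and TBX18. Clusters of 1 library are not replicates, these counts are descriptions, and the part of the change in clusters in the summed differences was not tested.

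In compartment 1 at day 3, the higher Nqo1 and part of the higher Hmox1 lay in 1 cluster. Cluster 16 held 420 cells, 13.4% of the compartment in TBX18, and had at least 20 cells in no other library. It carried Hmox1 at 29.3 CPM and Nqo1 at 31.8 CPM, whereas cluster 6, which held 70.9% of the compartment, carried 8.52 and 4.50 CPM. Cluster 16 also had the higher transgene level, with hTBX18 at 96.3 CPM and ZsGFP at 350 CPM against 14.99 and 19.1 CPM in cluster 6. The 100 genes highest in compartment 1 relative to compartment 2 in GFP at day 3 made up 5.55% of its UMIs, against 13.3% in cluster 6, the 100 genes highest in compartment 2 made up 0.255%, and its median doublet score was 0.019. The part of these differences in the Hmox1 and Nqo1 levels was not tested. Without cluster 16, which was singled out after its values were seen, Hmox1 was at 9.27 CPM and 0.71 (0.55 to 0.87) above GFP, Nqo1 was at 4.43 CPM with the sign turned, at -0.12 (-0.32 to 0.08), and Gclm was at -0.82 (-0.91 to -0.74). The number of the 4 that were 2-fold higher in compartment 1 was then 0, where 4.95% of all genes were. The rest of the compartment also lay in different clusters, with 78.8% of it in cluster 2 in GFP and 70.9% in cluster 6 in TBX18. The 3 clusters with at least 20 cells in both libraries held 6.33% of the GFP cells and 5.50% of the TBX18 cells. In these, Hmox1 was higher with TBX18 in 2 of 3, Nqo1 lower in 2, Gclc lower in 3 and Gclm lower in 2. These are clusters 22, 26 and 27, and only Hmox1 in cluster 27 had intervals that do not overlap. It was at 16.3 CPM in GFP and 49.7 CPM in TBX18, the highest Hmox1 of the compartment's clusters there. Of the UMIs of cluster 27, 1.95% and 2.71% came from the 100 genes highest in compartment 2. Clusters 22 and 26 each held at most 8 UMIs of Hmox1, Nqo1 or Gclc per library.

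Cells of compartment 1 in which a transgene UMI was found were also set against those in which none was found, in equal numbers matched on depth. In TBX18 at day 3, Hmox1 was at 13.1 CPM in 1265 cells with a transgene UMI and 9.92 CPM in 1265 without, a log2 ratio of 0.40 (0.20 to 0.60), and 0.62 (0.38 to 0.86) when cluster 16 was left out. Nqo1 was at 10.8 and 5.31 CPM, a ratio of 1.03 (0.78 to 1.28), and 0.00 (-0.35 to 0.36) without cluster 16. At day 14 Hmox1 was higher in transgene-positive cells by 0.90 (0.43 to 1.37) in TBX18, from 198 cells of each kind, and by 0.90 (0.65 to 1.16) in TBX18 with A83-01, from 334. With GFP, Hmox1 in EGFP-positive cells differed by 0.10 (-0.18 to 0.38) at day 3 and 0.04 (-0.09 to 0.17) at day 14. Nqo1 was higher in EGFP-positive cells at day 14, by 0.67 (0.42 to 0.93), as it was in transgene-positive cells with A83-01, by 0.67 (0.28 to 1.06), but not in TBX18 at day 14, at 0.00 (-0.71 to 0.70). For Gclm the widest of these differences was 0.57 (0.18 to 0.98), in TBX18 at day 14, and for Gclc -0.29 (-0.55 to -0.04), in GFP at day 3.

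At day 14, TBX18 was the lower library for all 4 genes in both compartments, though for Gclm in compartment 1 the interval of the ratio includes 0. In compartment 1 Hmox1 was 3.10-fold lower, a log2 ratio of -1.63 (-1.78 to -1.49), and Nqo1 2.26-fold lower, at -1.18 (-1.41 to -0.95). In compartment 2 Nqo1 was 3.28-fold lower, at -1.72 (-1.77 to -1.67), and Hmox1 1.40-fold lower, at -0.48 (-0.52 to -0.44). Gclc was at -0.60 (-0.79 to -0.41) and -0.67 (-0.76 to -0.57), and Gclm at -0.06 (-0.21 to 0.08) and -0.12 (-0.21 to -0.03), in compartments 1 and 2. In compartment 1, 2 of the 4 were at least 2-fold lower, where 0.785% of genes were, and 0 higher, where 3.48% were. In compartment 2, 1 was 2-fold lower and 0 were higher, against 0.423% and 2.01% of genes. In compartment 2, 0.0805% of the genes tested had a lower ratio than Nqo1, and in compartment 1 0.121% had a lower ratio than Hmox1. The median of the 4 was -0.89 and -0.57, against 0.22 and 0.13 over all genes.

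Some clusters were shared by the day 14 GFP and TBX18 libraries. In compartment 1, 3 such clusters, 9, 18 and 23, held 93.5% of the TBX18 cells and 35.1% of the GFP cells. All 4 genes were lower with TBX18 in 3 of the 3, but not all intervals were apart. They were apart for Hmox1 in each cluster, for Nqo1 in clusters 9 and 18, and for Gclm in cluster 23. For Gclc they overlap in each cluster, so no direction is read there. Hmox1 in cluster 9 was at 35.4 CPM in GFP and 18.3 CPM in TBX18, and Nqo1 at 34.4 and 6.67 CPM. In compartment 2, 4 shared clusters held 99.1% of the GFP cells and 39.5% of the TBX18 cells, with Hmox1 and Nqo1 lower in 3 of 4, the exception for both being cluster 20. Intervals overlap for Hmox1 in cluster 11 and for Nqo1 in cluster 20. Cluster 3 took 83.4% of compartment 2 in GFP and 1.13% in TBX18, with Nqo1 at 160 and 83.2 CPM. In TBX18 cluster 4 took 32.5%, with Nqo1 at 31.9 CPM, and in GFP 8.51%, with 44.5 CPM. The share of cells in each cluster thus differed between the libraries together with the levels within it, and the part of each in the summed difference was not tested.

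**Figure D2:**
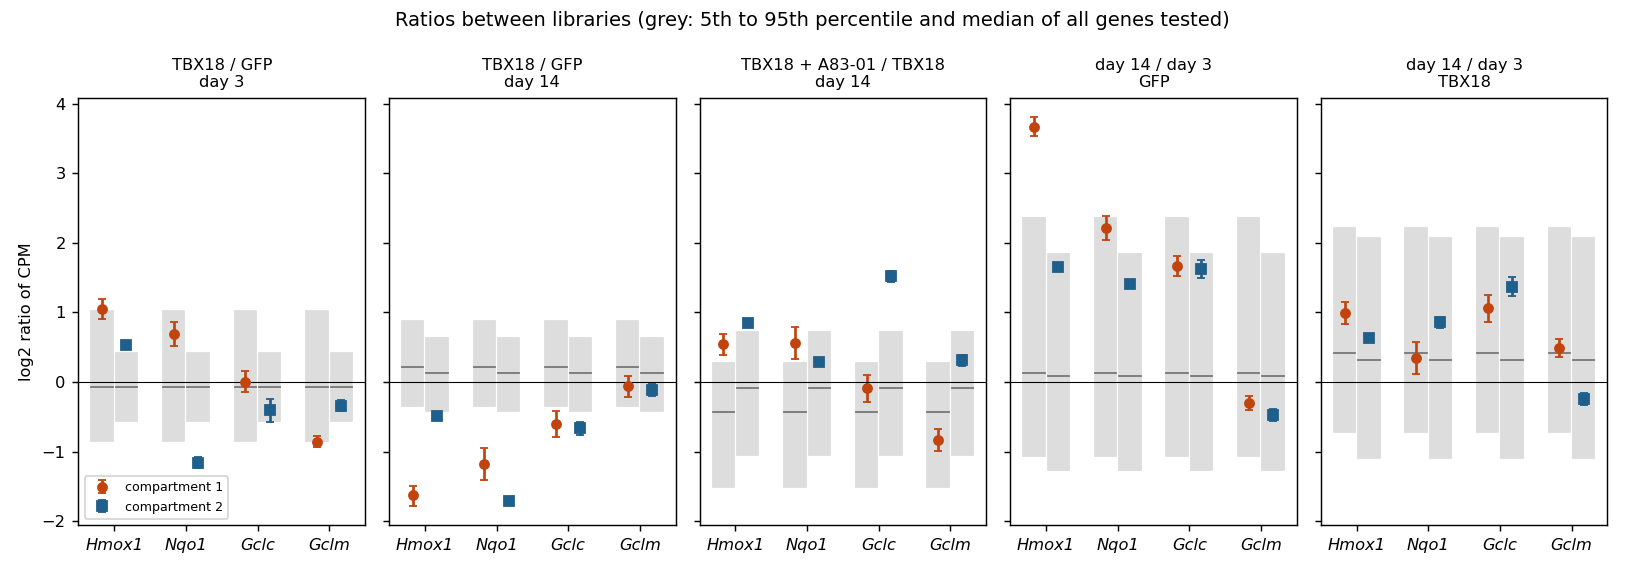
Log2 ratio of CPM between libraries for each gene, comparison by comparison, in compartment 1 (circles) and compartment 2 (squares), with exact 95% intervals as bars; grey bands run from the 5th to the 95th percentile of all genes tested, with their median as a line. For TBX18 over GFP at day 14, Hmox1, Nqo1 and Gclc lie below the band in both compartments. For A83-01, Hmox1 and Gclc lie above it in compartment 2, and Hmox1 and Nqo1 in compartment 1.

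Adding A83-01 to TBX18 at day 14 went with more Gclc in compartment 2. Gclc was 2.86-fold higher there, a log2 ratio of 1.52 (1.44 to 1.60), and Hmox1 1.79-fold higher, at 0.84 (0.81 to 0.88). Nqo1 was at 0.28 (0.22 to 0.34) and Gclm at 0.31 (0.23 to 0.39). Of the 4, 1 was at least 2-fold higher and 0 lower, where 2.36% and 5.68% of genes were. In compartment 1 Hmox1 was at 0.54 (0.39 to 0.69), Nqo1 at 0.55 (0.33 to 0.79), Gclc at -0.09 (-0.28 to 0.10) and Gclm at -0.84 (-0.99 to -0.68), with 0 of the 4 past 2-fold in either direction, where 0.503% of genes were higher and 13.8% lower. The median of all genes in compartment 1 was -0.43, and median-of-ratios scaling moved it by 0.47, so that Gclc turned to 0.39, Hmox1 to 1.02, Nqo1 to 1.03 and Gclm to -0.35, and 2 of the 4 were then at least 2-fold higher, where 1.93% of genes were. In compartment 2 the median of all genes was -0.09. The TBX18 library at day 14 is shared with the comparison of TBX18 and GFP.

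Compartment 1 again lay in different clusters in the libraries with and without A83-01. Cluster 7 took 83.4% of it with A83-01, and cluster 9 took 80.1% with TBX18 alone. The 2 clusters with at least 20 cells in both held 3.27% of the A83-01 cells and 86.0% of the TBX18 cells, and in them Hmox1, Gclc and Gclm were higher with A83-01 in 2 of 2 and Nqo1 in 1. For Gclm the intervals overlap in both clusters, so no direction is read from them. In cluster 9 Gclm was at 29.9 CPM (27.3 to 32.7) with TBX18 alone and 35.8 CPM (24.5 to 50.6) with A83-01. In cluster 23 it was at 50.68 and 51.01 CPM. For Gclc, whose summed ratio has an interval that includes 0, the direction is opposite to that ratio. The Gclc intervals of the 2 libraries were apart in cluster 9 and overlap in cluster 23. Much of the Nqo1 with A83-01 came from few cells: cluster 9, with 43 cells or 1.76% of the compartment, was at 185 CPM and held 23.7% of its Nqo1 UMIs. Cluster 19, 1 of 4 clusters of compartment 1 with at least 1% of UMIs from compartment 2 genes, took 13.1% of the cells at 25.9 CPM and held 25.7% of the Nqo1 UMIs. Cluster 7 was at 8.72 CPM, against 6.67 CPM in cluster 9 with TBX18 alone.

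Within cluster 11 of compartment 2, which the 3 day 14 libraries share, Gclc was at 55.6 CPM in GFP, 34.4 CPM in TBX18 and 87.7 CPM in TBX18 with A83-01. Hmox1 in cluster 11 was at 74.3, 59.1 and 165 CPM, Nqo1 at 149, 54.8 and 123 CPM, and Gclm at 59.8, 44.6 and 56.9 CPM in the same order. TBX18 was the lowest library for all 4 genes in this cluster. For Hmox1, though, the intervals of GFP (63.8 to 86.0) and TBX18 (53.1 to 65.6) overlap. Cluster 11 took 3.09%, 4.82% and 10.8% of the compartment. The largest cluster of compartment 2 with A83-01, cluster 1 with 78.7% of it, carried Gclc at 45.1 CPM. Cluster 0, the largest with TBX18 alone, carried 15.5 CPM, though these are different clusters. Cluster 14, with 9.29% of the compartment with A83-01, carried Gclc at 19.9 CPM (16.9 to 23.3). In cluster 20, also shared, Gclc was at 27.2 CPM (15.8 to 43.5) with A83-01 and 21.3 CPM (13.4 to 32.3) with TBX18 alone. The intervals of cluster 20 overlap.

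Between day 3 and day 14 the libraries with GFP differed by more than those with TBX18 in Hmox1 and Nqo1. The share of free RNA in the low day 3 levels of compartment 1 was not measured. With GFP in compartment 1, Hmox1 was 12.7-fold higher, a log2 ratio of 3.67 (3.54 to 3.80), Nqo1 4.63-fold, at 2.21 (2.04 to 2.38), and Gclc 3.18-fold, at 1.67 (1.52 to 1.81), whereas Gclm was at -0.30 (-0.41 to -0.20). In compartment 2 they were at 1.65 (1.59 to 1.70), 1.41 (1.36 to 1.46), 1.63 (1.497 to 1.76) and -0.47 (-0.56 to -0.38). Thus 3 of 4 were at least 2-fold higher in each compartment and 0 lower, where 15.1% and 18.7% of genes were higher and 5.94% and 8.86% lower. With TBX18 the same genes were at 0.99 (0.83 to 1.15), 0.34 (0.11 to 0.57), 1.06 (0.87 to 1.25) and 0.49 (0.36 to 0.62) in compartment 1, Nqo1 turning to -0.035 under median-of-ratios scaling. Leaving out 4 clusters of compartment 1 with at least 1% of UMIs from compartment 2 genes, whose median doublet scores of 0.0821 to 0.140 compare with 0.0334 to 0.0597 over their libraries, put Hmox1 at 0.66 and Nqo1 at -0.13. In compartment 2 with TBX18 they were at 0.63 (0.58 to 0.67), 0.85 (0.78 to 0.93), 1.37 (1.23 to 1.51) and -0.25 (-0.33 to -0.17). With TBX18, 1 of 4 was 2-fold higher in each compartment and 0 lower, where 20.4% and 25.6% of genes were higher and 2.46% and 6.4% lower. The day 14 tables hold cells of 1993 to 5591 genes and were deposited on another scale than the day 3 tables, which reach from 28 to 7757 genes, so day cannot be told apart from these differences. Applying the day 14 range of genes and UMIs to all libraries moved no ratio of a day comparison across 0. With at least 20 cells, 0 clusters were shared between the days in compartment 1 with either virus and in compartment 2 with TBX18, so these ratios compare different clusters. In compartment 2 with GFP 1 cluster was shared, cluster 15, with Hmox1 at 314 CPM (298 to 330) at day 3 and 175 CPM (124 to 240) at day 14, the opposite direction to the whole compartment. At day 14 cluster 15 held only 21 cells, 0.52% of the compartment, and 38 UMIs of Hmox1. It is also among the clusters picked for their Hmox1 after their values were seen, described below.

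The glutamate-cysteine ligase subunits did not move together. The number of Gclc UMIs per Gclm UMI in compartment 1 was 0.203 (0.187 to 0.219) in GFP and 0.369 (0.337 to 0.402) in TBX18 at day 3, and 0.794 (0.722 to 0.873), 0.547 (0.477 to 0.626) and 0.914 (0.826 to 1.01) in GFP, TBX18 and TBX18 with A83-01 at day 14. In compartment 2 it was 0.246 (0.226 to 0.268), 0.235 (0.214 to 0.258), 1.05 (0.984 to 1.13), 0.721 (0.678 to 0.766) and 1.66 (1.58 to 1.75). In both compartments TBX18 had the lowest of the 3 ratios at day 14 and A83-01 the highest. How well each gene's 3′ end is captured enters this ratio, so it compares libraries and not the 2 genes.

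**Figure D3:**
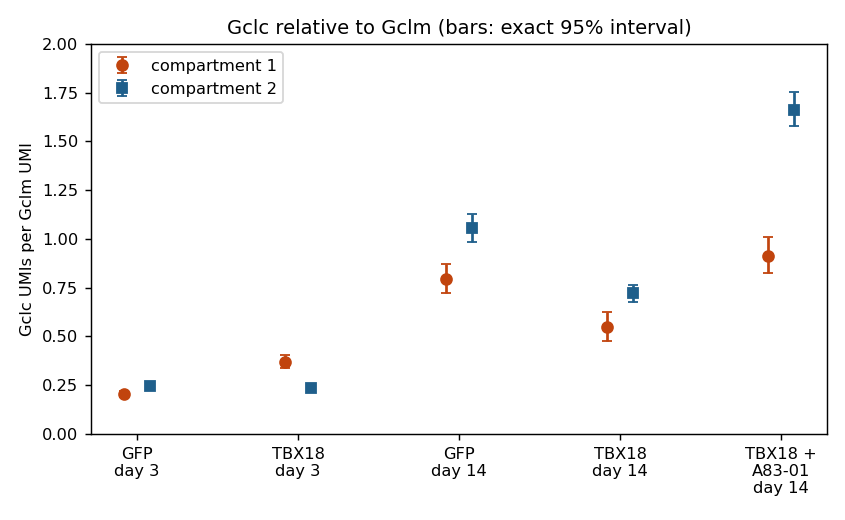
Gclc UMIs per Gclm UMI in each library, for compartment 1 (circles) and compartment 2 (squares), with exact 95% intervals as bars. The 2 day 3 libraries lie between 0.203 and 0.369, and the highest value is 1.66, in compartment 2 of TBX18 with A83-01.

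Hmox1 was spread unevenly over the clusters of compartment 2. Clusters 15, 20, 29 and 30, picked for their Hmox1 after their values were seen and left unnamed, held 9.72%, 5.35%, 4.53%, 2.39% and 1.02% of compartment 2 cells in GFP day 3, TBX18 day 3, GFP day 14, TBX18 day 14 and TBX18 with A83-01. They carried Hmox1 at 269, 428, 398, 688 and 939 CPM, and held 45.8%, 28.5%, 6.02%, 10.8% and 3.92% of the compartment's Hmox1 UMIs. Nqo1 in them was at 53.7, 37.4, 36.3, 92.1 and 104 CPM, against 55.1, 24.0, 149, 43.6 and 53.8 CPM in the rest of the compartment. Without them, Hmox1 in compartment 2 was at 29.0, 53.3, 148, 99.6 and 190 CPM. The log2 ratio of TBX18 over GFP was then 0.88 at day 3 and -0.57 at day 14, that of A83-01 over TBX18 was 0.93, that of day 14 over day 3 was 2.35 with GFP and 0.90 with TBX18, and that of compartment 2 over 1 in GFP at day 3 was 2.35. The direction was the same with and without these clusters in each of these comparisons. In compartment 1 at day 14, the GFP library's cluster 10 (64.6% of the compartment) held Hmox1 at 71.5 CPM and the TBX18 library's cluster 9 (80.1%) held 18.3 CPM.

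**Figure D4:**
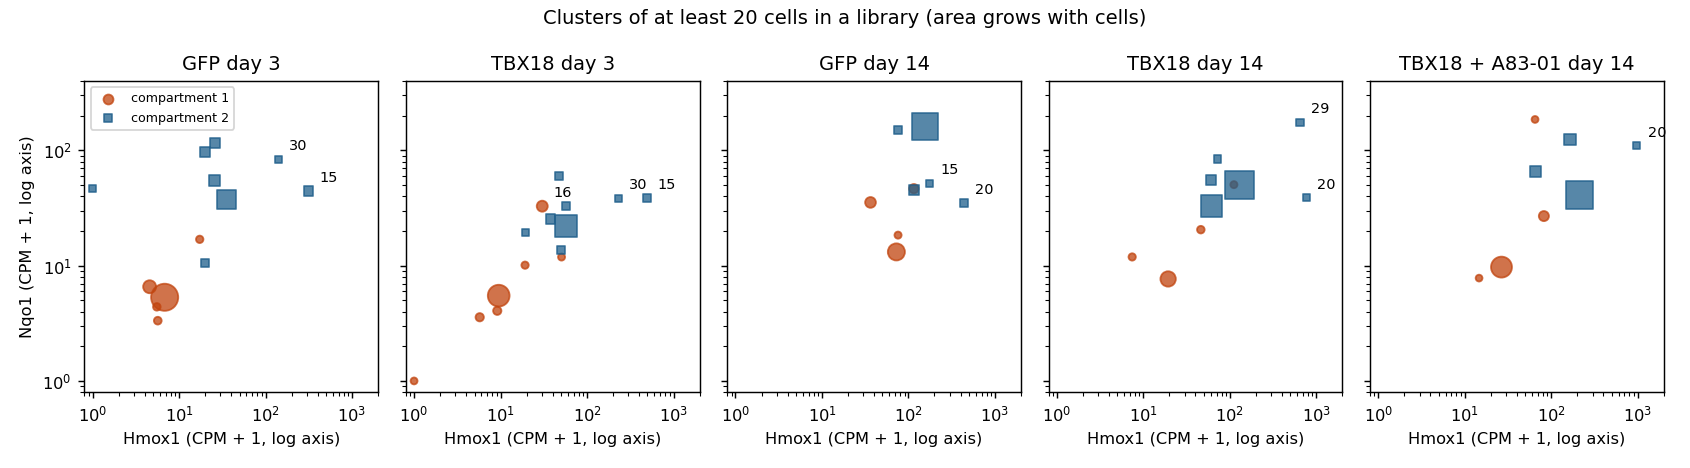
Each point is 1 cluster of at least 20 cells in a library, with Hmox1 on the x axis and Nqo1 on the y axis in CPM plus 1 (log axes), coloured by compartment, its area growing with its number of cells. The numbered clusters 15, 20, 29 and 30 are those picked for their Hmox1, from 139 to 973 CPM, and cluster 16 lies above the other clusters of compartment 1 in TBX18 at day 3.

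The share of cells with a UMI followed the levels once every cell was thinned to 5000 UMIs, leaving out at most 127 shallower cells per library and compartment. In compartment 2, Hmox1 was found in 17.6% (16.3 to 19.0) of GFP and 24.5% (23.0 to 26.1) of TBX18 cells at day 3, and in 40.7%, 30.3% and 46.1% of GFP, TBX18 and TBX18 with A83-01 cells at day 14. Nqo1 was found in 17.4%, 8.75%, 38.2%, 15.9% and 17.7% of compartment 2 cells in the same library order, and Gclc in 3.65%, 3.01%, 11.0%, 7.53% and 18.9%. In compartment 1, Hmox1 was found in 2.53%, 4.21%, 23.7%, 8.74% and 13.03% of cells, and Gclm in 15.5%, 9.80%, 14.0%, 13.4% and 7.51%. Without thinning, the Hmox1 shares of compartment 2 were 44.0%, 59.9%, 64.5%, 52.4% and 71.3%. No cell type known to lack these genes could be named, so the share that free RNA gives was not measured, and a low share, such as that of Hmox1 in compartment 1 at day 3, is not read as expression.

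Over the 10 sums of a library and compartment, log2(CPM + 1) of Hmox1 and Nqo1 had a Pearson r of 0.89, Hmox1 and Gclc 0.69, and Nqo1 and Gclc 0.53. Gclm had -0.12, -0.01 and -0.09 with Hmox1, Nqo1 and Gclc. These are descriptions over 10 points that share 5 libraries. The genes most like each member, among those with a mean of at least 20 CPM, were ENSRNOG00000012881 for Hmox1 (r of 0.96) and ENSRNOG00000011541 for Nqo1 (r of 0.95), and the highest r was 0.92 for Gclc and 0.90 for Gclm.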

How the data were processed

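Single cells were captured with a Chromium 3′ kit and sequenced on a NovaSeq instrument, per the labels' protocols. STAR 2.7.8a, Partek and the build Rnor_6.0 are named without role in the submitters' processing notes, and the authors' filters are not given in the sources used here. At day 3 the authors deposited estimated counts of UMIs per cell, whole within 0.05 for 99.7% of nonzero values. At day 14 they deposited log2 of CPM plus 1 per cell. UMIs were recovered from these by reading each cell's commonest value above 0 as 1 UMI, a step that the design had not foreseen, and the values of the 4 genes came out whole. Recovery was tested on simulated data.

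The RefSeq gene table matched 0 of 15074 gene IDs, so the marker and pathway lists, and the class alternative built on them, were not used. The 4 members and the lists were chosen with earlier results of these data known. Named genes are the 4 members, the virus features, and for each member the genes with the highest r over the 10 sums; 2 of these are printed. Barcodes with at least 500 genes were kept. Scrublet in scanpy 1.11.5 marked 0 to 0.0339% of 4 libraries and 3.11% of TBX18 at day 3 as doublets by its automatic threshold, which did not work in those 4, and cells with the top 6% of scores in each library were left out instead. Clustering used 2000 variable genes, 30 principal components, 20 neighbours and leidenalg 0.10.2 at resolution 1. It gave 33 clusters, which were joined by average linkage into 2 compartments; 19 cells joined neither. Ratios of the members are ratios of summed UMIs over totals without a pseudocount, with exact (Clopper-Pearson) intervals given the total, and levels carry exact Poisson intervals. Background shares use 4967 genes with a pseudocount of 0.5 CPM. The scripts ran in Python 3.11.15 with scipy 1.17.1. Other scalings, cell filters, doublet rules, clusterings, folds, pseudocounts and depths were tried.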

Additional observations from a re-analysis of the deposited data

Results flagged for a closer look

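Several differences had opposite signs in 2 settings; with 1 library per group none of them was tested. The log2 ratio of TBX18 over GFP for Hmox1 in compartment 1 was 1.05 at day 3 and -1.63 at day 14, a difference of -2.68, and in compartment 2 it was 0.53 and -0.48, a difference of -1.02. For Nqo1 in compartment 1 the same ratio was 0.69 and -1.18, a difference of -1.87. At day 3 the Nqo1 ratio was 0.69 in compartment 1 and -1.16 in compartment 2, a difference of 1.85. The positive Nqo1 value of compartment 1 turns to -0.12 without cluster 16.

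Gclm with A83-01 over TBX18 at day 14 was -0.84 in compartment 1 and 0.31 in compartment 2, a difference of -1.15. Gclm at day 14 over day 3 with TBX18 was 0.49 in compartment 1 and -0.25 in compartment 2, a difference of 0.74.

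Barcodes with under 500 genes, used only in the alternative with no filter on genes per cell, held members above the limit of 3 counts that a count of 0 allows. In GFP at day 3, 731 such barcodes held 6 UMIs of Gclm, or 1.15 CPM. In TBX18 at day 3, 292 held 5 UMIs of Hmox1, or 1.69 CPM.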

How the results depend on the processing

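No paired analysis was possible because each group has 1 library. The class alternative that needs named markers was not run. In 10 settings, 60 log2 ratios of the 4 genes were recomputed. The number that moved varied with the setting: median-of-ratios scaling turned the sign of 5, of which 2 had an interval that excludes 0, and moved 41 beside those 2 beyond their counting interval. The doublet rule moved 18, and the day 14 range of genes and UMIs moved 15; each turned 2 signs. Without the 4 mixed clusters, 13 moved and 1 turned, and without cluster 16, 5 moved and 1 turned.

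Signs turned for Nqo1 in compartment 1 at day 14 over day 3 with TBX18, to -0.035 under median-of-ratios scaling and -0.13 without the mixed clusters; for Nqo1 in compartment 1 for TBX18 over GFP at day 3, to -0.12 without cluster 16; and for Gclc in compartment 2 over 1 in GFP at day 3, to -0.078 under median-of-ratios scaling and to -0.057 in cells within the day 14 range. Signs of ratios whose interval includes 0 turned for Gclc in compartment 2 over 1, to -0.11 in GFP and -0.051 in TBX18 at day 14 under median-of-ratios scaling; for Gclc with A83-01 over TBX18 in compartment 1, to 0.39 under that scaling and 0.24 with no cells left out as doublets; and for Gclc in compartment 1 for TBX18 over GFP at day 3, to -0.017 in the day 14 range and -0.071 with no cells left out as doublets. The cause was not tested in these cases. Ratios without the 4 clusters of highest Hmox1, without cluster 16 and without the mixed clusters were chosen after seeing the data.

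The number of the 4 genes at least 2-fold higher or lower changed as follows, with the share of all genes under the same setting in parentheses. For TBX18 over GFP at day 3 in compartment 1, those higher were 0 with the day 14 range (4.87%) and 0 without cluster 16 (4.95%), and at 1.5-fold 2 were higher and 1 lower, where 587 and 596 of 4967 genes were. The 1 counted there in the main setting, Hmox1, passes 2-fold only without the pseudocount of 0.5 CPM that the shares of all genes carry. For TBX18 over GFP at day 14, 1 was lower in compartment 1 by the mean over cells of CPM (0.624%) and 3 at 1.5-fold (2.19%), and 2 in compartment 2 at 1.5-fold (2.4%). For A83-01 in compartment 1, 2 were higher under median-of-ratios scaling (1.93%) and 1 lower at 1.5-fold (35.9%), and in compartment 2, 2 were higher at 1.5-fold (7.43%). For day 14 over day 3 with TBX18 in compartment 1, those higher were 0 under median-of-ratios scaling (11.5%) and without the mixed clusters (19.1%), 3 without cluster 16 (19.7%), and 2 with no filter on genes per cell (21.9%), with the day 14 range (21.6%), at clustering resolution 0.5 (20.4%), by the mean over cells (22.0%) and at 1.5-fold (39.7%). In compartment 2 they were 2 with the day 14 range (27.9%) and by the mean over cells (26.6%), and 3 at 1.5-fold (40.5%). For compartment 2 over 1 in GFP at day 14, 1 was higher under median-of-ratios scaling (21.0%) and with no cells left out as doublets (21.8%), and in TBX18 with A83-01 4 were higher at 1.5-fold (47.9%) against 3 at 2-fold (34.2%).

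Background shares past 2-fold in either direction moved with a pseudocount of 5 CPM in 3 of 10 cases: from 8.70% to 5.74% and from 2.28% to 1.31% at day 3 in compartments 1 and 2, and from 14.3% to 9.24% with A83-01 in compartment 1. All 40 shares of cells moved with the depth they were thinned to, so they are read at 5000 UMIs only. Depth limits Nqo1 in compartment 1 of TBX18 at day 14 most, with 203 UMIs.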
